A study of Mus musculus with 6 samples.

Results

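Transcript levels of the SR and hnRNP splicing regulators were compared in E14 mouse embryonic stem cells that received an siRNA against Npm1 or a control siRNA. The members were chosen by gene symbol alone: Srsf, Hnrnp, Tra2, Rbfox, Ptbp, Mbnl, Celf and Srrm genes. In all, 52 of the 52535 rows of the authors' deposited table met the rule, after 2 rows with pseudogene symbols were left out. Each group held 3 samples of wild-type E14 cells, an established embryonic stem cell line grown with LIF and the 2i inhibitors, and all samples were collected on day 3 after transfection. Both groups were lipofected, so the control group carries the transfection too. The labels do not say whether samples came from separate cultures, so p-values cover the spread among these 6 samples only, part or all of which may be technical. RNA was poly(A)-selected, and changes in exon use within a gene cannot be read from these values per gene.

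SR proteins have RNA-recognition motifs and a tail rich in arginine and serine, bind exonic enhancers and help the spliceosome define exons. The hnRNP proteins coat nascent transcripts and often act against exon inclusion, and the Ptbp, Rbfox, Mbnl and Celf families set tissue-specific choices. Many of these genes control their own level by switching to transcript forms that are destroyed by nonsense-mediated decay.

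Npm1, which encodes nucleophosmin of the granular component of the nucleolus, had a mean normalized count of 135425 in the authors' deposited table, and its log2 fold change was -1.14 (95% interval -1.29 to -0.996), which is 45.3% of the control level (adjusted p = 5.35e-49, Benjamini-Hochberg). The table does not state which group its fold change is relative to, so this sign of Npm1 sets every direction given here as Npm1 siRNA over control siRNA. A mean normalized count is the count after division by a scaling factor per library, averaged over the 6 libraries. The table holds no column per library, so the standard error (SE) of each log2 fold change was taken from the fold change and its p.

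Few of the splicing regulators were called as changed, and a missing call does not show that a gene was unchanged. The 47 whose mean normalized count reached 10 were tested, and 2 were higher in the Npm1 siRNA samples at an adjusted p under 0.05, where 2.23% of all tested genes were higher. Of the members 0 were lower, where 2.07% of all tested genes were, and 45 had no call. Calls in either direction make up 4.26% of the tested members and 4.30% of all 14284 tested genes, so the members' share is near that of all tested genes. Most members are abundant, and with a mean of at least 1000 the shares were 2.63% of 38 members and 7.67% of genes. Hnrnph1, whose protein binds runs of guanines, was 1.15-fold higher, and Celf5, a member of the Celf family best known from brain, was 1.55-fold higher. Both calls were lost when the dependence of fold changes on length and GC content of the transcript was subtracted, with adjusted p of 0.0736 for Hnrnph1 and 0.0577 for Celf5. The log2 fold changes were then 0.17 for Hnrnph1 and 0.58 for Celf5, beside 0.20 and 0.63 as reported. Both were also lost under the stricter Benjamini-Yekutieli adjustment (0.134 and 0.255) and in a test against a fold of 1.2 (1 and 1). In bulk RNA, fewer cells of a type and less RNA per cell cannot be told apart.

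At an unadjusted p under 0.05 there were 6 members, 12.8% of those tested, against 16.3% of all tested genes. Of the 47 log2 fold changes, 27 were positive and 20 negative, and their median was 0.018, beside 0.0019 over all tested genes. The positive share was 57.4% for the members and 50.4% for all tested genes. The median size of the log2 fold change, taken without its sign, was 0.062 for the members and 0.15 for all tested genes. SEs were smaller for the members too, with a median of 0.069 against 0.15.

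**Figure D1:**
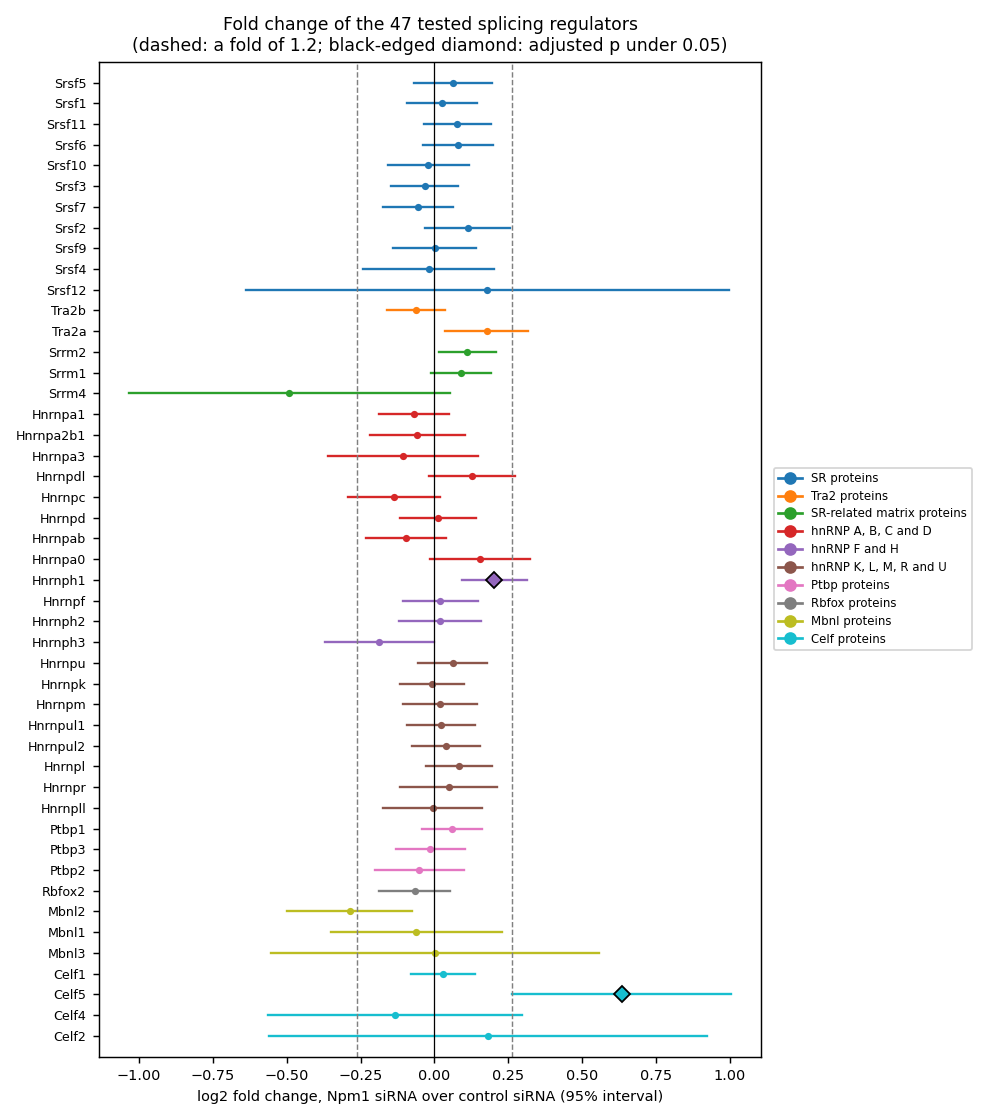
Log2 fold change of each of the 47 tested splicing regulators, Npm1 siRNA over control siRNA, with its 95% interval, coloured by family and ordered by mean within it. Diamonds mark Hnrnph1 and Celf5, the 2 members called higher, and dashed lines mark a fold of 1.2 in either direction.

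The width of the intervals limits the size of change that these data allow. For 32 of the 47 members (68.1%) the whole 95% interval lay inside a fold of 1.2 in either direction, which is 0.26 on the log2 scale, against 20.7% of all tested genes. Among genes with a mean of at least 1000, 31 of 38 members (81.6%) were so bounded, against 56.7% of 4813 genes. In that same range 1 member (2.63%) was called, against 7.67% of genes, and 4 (10.5%) had an unadjusted p under 0.05, against 23.9%. Their median unsigned log2 fold change was 0.060 and that of all genes in the range 0.087. These shares are descriptions, and no test was made of the list.

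**Figure D2:**
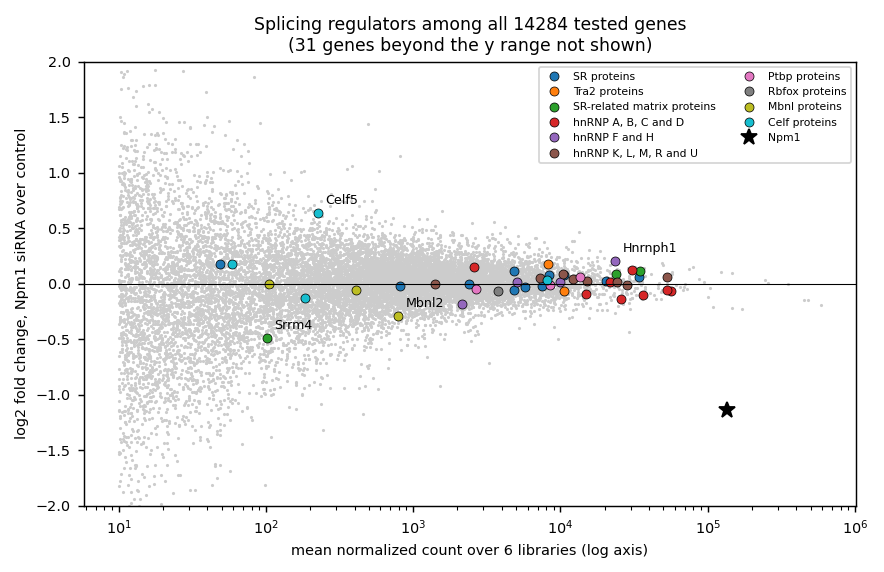
Log2 fold change against the mean normalized count (log axis) for all 14284 tested genes in grey and the 47 splicing regulators in colour, with Npm1 as a star. Most members lie at the abundant end and near 0, and Celf5, Srrm4, Mbnl2 and Hnrnph1 are named.

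Promoters of the 2 called members are printed because these are the genes on which the count of changes rests. Sequences are from RefSeq on GRCm38.p6, run from 250 bases before to 50 after the start, read 5′ to 3′ on the gene's strand, and CpG pairs are in capitals. The Hnrnph1 window is chr11:50376740-50377039 on the plus strand and holds 24 CpG. The Celf5 window is chr10:81482650-81482949 on the minus strand and holds 23. RefSeq lists 5 starts for each gene, and the one nearest the GENCODE gene start was taken.
Hnrnph1: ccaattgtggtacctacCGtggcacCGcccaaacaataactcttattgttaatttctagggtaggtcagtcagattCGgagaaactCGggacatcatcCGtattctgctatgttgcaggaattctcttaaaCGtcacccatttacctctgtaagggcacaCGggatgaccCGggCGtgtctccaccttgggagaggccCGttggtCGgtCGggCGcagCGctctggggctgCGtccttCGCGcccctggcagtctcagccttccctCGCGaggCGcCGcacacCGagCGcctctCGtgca
Celf5: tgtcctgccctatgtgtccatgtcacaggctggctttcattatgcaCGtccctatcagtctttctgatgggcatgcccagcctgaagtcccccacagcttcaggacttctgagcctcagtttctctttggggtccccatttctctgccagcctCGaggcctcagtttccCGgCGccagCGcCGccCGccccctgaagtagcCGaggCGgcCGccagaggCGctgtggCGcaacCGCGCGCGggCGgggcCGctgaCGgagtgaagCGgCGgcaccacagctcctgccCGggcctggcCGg

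The ratio of CpG pairs found to those given by the C and G content was 0.956 for the Hnrnph1 window and 0.703 for that of Celf5. Over the 47 members with a RefSeq promoter it ranged from 0.144 for Rbfox1 to 1.28 for Hnrnpa2b1, with a median of 0.896, beside 0.764 over 10209 tested genes. Only 42 of these 47 members were tested, and Rbfox1 lay below the filter, so the medians cover unlike sets. The letters TATAAA, searched on both strands, were in neither printed window. They were in 7 of the 47 members' windows (14.9%), in 6 of the 42 windows of tested members (14.3%) and in 6.87% of the windows of all tested genes. Some windows lie far from the GENCODE gene start, by 113365 bases for Celf2 and 150556 for Rbfox3. These are properties of the windows and say nothing about which factors bind there.

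Among the hnRNP F and H genes, Hnrnph1 (chr11:50376990-50386528, plus strand) had a mean normalized count of 23562 in the authors' deposited table. Its derived level was 21907 in the control group and 25217 in the Npm1 siRNA group, a log2 fold change of 0.20 (SE 0.056, 95% interval 0.093 to 0.31; adjusted p = 0.0132, Benjamini-Hochberg). The interval reaches past a fold of 1.2 at its upper end only. No other gene of the annotation overlaps Hnrnph1, and 1.18% of its 100-base windows also occur in 1 other gene.

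The close relatives of Hnrnph1 did not share that call. Hnrnpf had a log2 fold change of 0.019 and Hnrnph2 of 0.018, each with an SE of at most 0.070. Hnrnph3 lay the other way, at -0.19 (SE 0.094, unadjusted p = 0.0478, adjusted p = 0.301), and overlaps Rufy2 on the opposite strand, which had a mean of 944.4 and 0.14. Hnrnpf is the member with the most copied sequence, as 43.5% of its windows also occur in 8 other genes, so its reads may be split between them. Whether Hnrnph1 differed from its relatives was not tested.

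None of the 11 SR genes was called, with log2 fold changes from -0.055 for Srsf7 to 0.18 for Srsf12 and a median of 0.025. Srsf5 was the most abundant, at a mean normalized count of 34069 and a log2 fold change of 0.063 (SE 0.067). Srsf1, the founding SR protein, followed at 20357 and 0.025 (SE 0.061). Srsf11 had 10627 and 0.078 (SE 0.059). Srsf2, a marker of nuclear speckles, had the largest fold change among the SR genes with a mean above 1000, at 0.11 (SE 0.073, adjusted p = 0.480). Srsf3 and Srsf7, which also help export mRNA, had -0.033 and -0.055. The Srsf12 value rests on a mean of 48.5 and its interval runs from -0.64 to 0.996. The remaining SR genes were Srsf6 at 0.080, Srsf9 at 0.00066, Srsf4 at -0.019 and Srsf10, a repressor of splicing when dephosphorylated, at -0.020, each with an SE of at most 0.113.

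Tra2a and Tra2b, which bind purine-rich exonic enhancers, had values on opposite sides of 0. Tra2a had 0.18 (SE 0.072, unadjusted p = 0.0143, adjusted p = 0.158) and Tra2b -0.062 (SE 0.050, adjusted p = 0.612). Tra2a lies opposite Gm43980, which had a mean of 849.8 and a log2 fold change of 0.12, and use of strand in counting is not given in the sources used here.

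Srrm1 and Srrm2 are large proteins rich in serine and arginine that bridge splicing factors, and Srrm2 is a scaffold of nuclear speckles. Srrm2 had the smallest SE of the members, at 0.049, with a log2 fold change of 0.11 (unadjusted p = 0.0252, adjusted p = 0.218). Srrm1 had 0.091 (SE 0.052, adjusted p = 0.394). Srrm4, which promotes the inclusion of neural microexons, had a mean of 101.0 and a log2 fold change of -0.49 (SE 0.28, unadjusted p = 0.0769, adjusted p = 0.381). The interval of Srrm4 runs from -1.03 to 0.053 and so spans 0. On the opposite strand lies Srrm4os, with a mean of 84.6 and -0.33 on the log2 scale (adjusted p = 0.657). Reads of the pair cannot be told apart where strand was not used.

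The 8 hnRNP A, B, C and D genes include the most abundant members and none was called. Hnrnpa1, which binds exonic silencers, had a mean normalized count of 56673 and a log2 fold change of -0.069 (SE 0.061). Hnrnpa2b1 had 52741 and -0.058 (SE 0.082), and Hnrnpa3 had 36434 and -0.11 (SE 0.13). In this family 5 values were negative and 3 positive, from -0.14 for Hnrnpc, which binds uridine tracts, to 0.15 for Hnrnpa0. Between them lay Hnrnpab at -0.097, Hnrnpd, which binds AU-rich elements, at 0.012, and its relative Hnrnpdl at 0.13. The SE of Hnrnpa3 was the widest of the family, and 27.5% of its windows also occur in 25 other genes, while 25.4% of those of Hnrnpa1 occur in 11.

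The hnRNP K, L, M, R and U genes gave no call, with log2 fold changes between -0.0075 and 0.084 over 8 genes. Hnrnpu, a nuclear matrix protein, had a mean normalized count of 52627 and a log2 fold change of 0.062 (SE 0.060). Hnrnpk, which binds cytosine-rich RNA, had 28201 and -0.0075 (SE 0.055), and Hnrnpm had 24278 and 0.018 (SE 0.064). Hnrnpl, which binds CA repeats, had 0.084, Hnrnpr 0.048, Hnrnpul2 0.038, Hnrnpul1 0.023 and Hnrnpll, known for exon choice in lymphocytes, -0.0066. Adjusted p ran from 0.515 to 0.989 across the family, and all 8 intervals lay inside a fold of 1.2.

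Ptbp1, which silences neural exons outside neurons, had a mean normalized count of 13575 and a log2 fold change of 0.058 (SE 0.052, adjusted p = 0.663). Its neural relative Ptbp2 had 2690 and -0.052 (SE 0.077), and Ptbp3 had 8514 and -0.014 (SE 0.060). All 3 intervals lay inside a fold of 1.2. Rbfox2 was the only Rbfox gene above the filter, with 3751 and a log2 fold change of -0.067 (SE 0.062, adjusted p = 0.673).

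Mbnl proteins are known to repress exon choices typical of embryonic stem cells. Mbnl2 had a mean normalized count of 793.2 and a log2 fold change of -0.29 (SE 0.11, unadjusted p = 0.00798, adjusted p = 0.115), the lowest p among the negative members. Mbnl1 had 406.6 and -0.061 (SE 0.15), and Mbnl3 had 105.5 and 0.00065 (SE 0.28). The interval of Mbnl2 runs from -0.50 to -0.075. The intervals of Mbnl1, Mbnl2 and Mbnl3 each reach past a fold of 1.2 in at least 1 direction.

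Celf proteins bind GU-rich RNA. Celf5 (chr10:81459227-81482709, minus strand) had a mean normalized count of 225.6 and a log2 fold change of 0.63 (SE 0.19, 95% interval 0.26 to 1.004; adjusted p = 0.0251, Benjamini-Hochberg). Celf1, which also directs mRNA decay, was far more abundant at 8108 and had 0.030 (SE 0.055). Celf4 had 184.6 and -0.13 (SE 0.22), and Celf2 had 59.0 and 0.18 (SE 0.38). The gene on the strand opposite Celf5, Gm16105, had a mean of 0.175.

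Reads per library were recovered for 22 members from the digits of the authors' mean, since each mean adds up whole reads that were each divided by their library's scaling factor, and genes seen by 1 read give those 6 factors. For the 5 members below the filter a single set of whole reads met the mean. For the others, only sets close to the authors' fold change, within a spread set from their p, were searched. Among these 1 set met the mean for the less abundant members and up to 222 for the more abundant ones. A closer match to the fold change then picked 1. The libraries fall into their group through the sign of the authors' own fold change for genes seen by 1 read, and they carry no replicate number and no order. This step was added after the data were seen, and no test was built on it. With 3 libraries against 3, an exact two-sided permutation test cannot go below p = 0.10.

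Celf5 had 165.5, 169.9 and 195.1 normalized reads in the control libraries and 283.4, 252.2 and 287.2 in the Npm1 siRNA libraries. The groups did not overlap, with means of 176.8 ± 15.9 and 274.3 ± 19.2 (SD, n = 3 each). Leaving out any 1 library moved the log2 ratio only between 0.59 and 0.71.

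Mbnl2 had 862.3, 877.4 and 876.7 normalized reads in the control libraries and 774.9, 691.7 and 676.2 with Npm1 siRNA. The groups were apart, and the log2 ratio stayed between -0.35 and -0.25 without any 1 library. Srrm4 had 119.3, 105.7 and 129.0 in control and 75.3, 79.3 and 97.5 with Npm1 siRNA, again without overlap. Rbfox2 had 3830, 3882 and 3804 against 3760, 3670 and 3558, apart by less than the range within either group. These 4 make up 23.5% of the 17 recovered members above the filter. The same recovery over all genes in that range of means gave reads for 10042, and the groups did not overlap in 24.7% of them, so the members' share is near the background. Of the 4 members, Celf5 alone passed the adjusted test.

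In the other recovered members above the filter the groups overlapped. Hnrnph3 had 2210, 2512 and 2136 normalized reads in control and 2230, 1806 and 1990 with Npm1 siRNA, so 1 library of the Npm1 siRNA group lay above 2 control libraries. Hnrnpa0 had 2693, 2201 and 2493 against 2593, 2689 and 2933. Ptbp2 had 2552, 2885 and 2779 against 2760, 2679 and 2487. In each of these genes the range within a group was wider than the distance between group means. The other 10 had ratios of Npm1 siRNA to control means from 0.912 for Celf4 to 1.13 for Celf2. Mbnl3, for example, had 98.2, 120.5 and 97.5 in control and 83.8, 104.1 and 128.9 with Npm1 siRNA. Hnrnph1 and Tra2a have means above 6000 and were not tried. Srsf2 and Hnrnph2 were tried, and no set of reads stood clear of the next best.

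**Figure D3:**
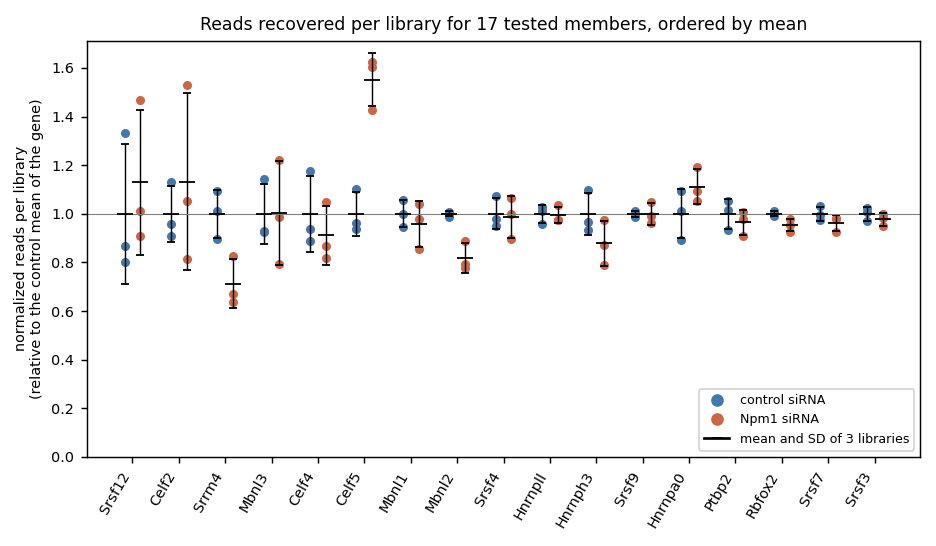
Normalized reads per library of the 17 recovered members with a mean of at least 10, each divided by the gene's control mean, with control siRNA in blue and Npm1 siRNA in orange. Bars give the mean and SD of 3 libraries. Celf5, Mbnl2, Srrm4 and Rbfox2 are the genes whose groups do not overlap, and Celf5 is the only 1 of them with the Npm1 siRNA libraries on top.

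The other 5 members lay below the filter and got no call, and for these the recovered reads rest on the mean alone. Celf3 had 6, 9 and 5 reads in the control libraries and 0, 10 and 19 with Npm1 siRNA. Rbfox1 had 8, 4 and 0 against 7, 0 and 3, and Srrm3 had 1, 4 and 2 against 5, 6 and 2. Rbfox3, a marker of mature neurons, had 5 reads, all in 1 control library, and Celf6 had 2, also in 1 control library. At these depths no difference was detectable.

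Levels between genes are compared per kilobase of the longest annotated transcript. On that scale Hnrnpa1 led with 18176 mean normalized counts per kb, followed by Hnrnpa2b1 with 14470 and Hnrnpdl with 11174. Srsf5 had the highest level of the SR genes, at 9784. Lower in the order stood 51.4 for Celf5, 13.5 for Srrm4 and 0.107 for Celf6. Levels of Hnrnpa1, Hnrnpa3, Hnrnpf, Hnrnpk and Srsf3 are uncertain, since these 5 have over 10% of their windows in other annotated genes as well.

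**Figure D4:**
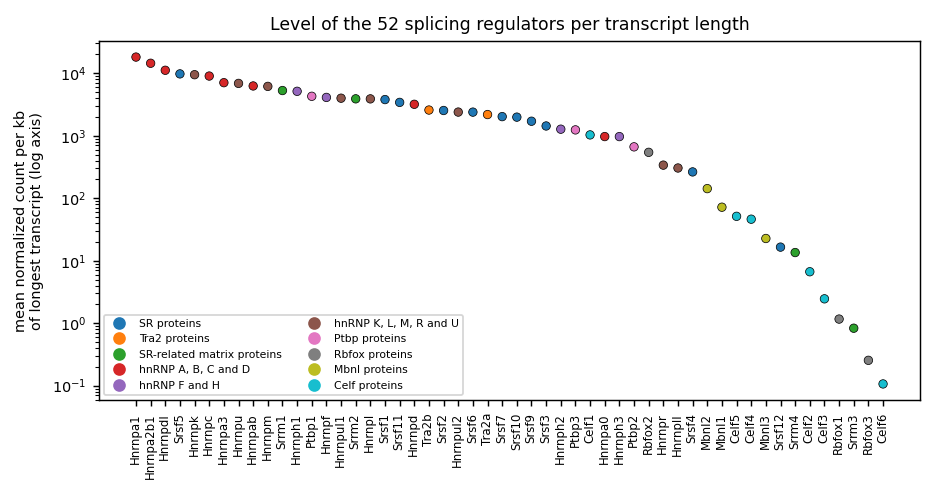
Mean normalized count per kilobase of the longest transcript (log axis) for all 52 splicing regulators, ordered by level and coloured by family. Hnrnpa1 is highest and Celf6 lowest, and the Celf, Mbnl and Rbfox genes other than Celf1 and Rbfox2 fill the low end together with Srsf12, Srrm3 and Srrm4.

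The 52 genes took 2.35% of the sum of all mean normalized counts, 2.33% in the control group and 2.37% in the Npm1 siRNA group, and 21 had a mean over 10000. In the GENCODE annotation, at least 1 transcript marked for nonsense-mediated decay was listed for 29 of the 47 tested members (61.7%), against 28.3% of 12392 tested protein-coding genes. With a mean of at least 1000 it was 25 of 38, against 32.2% of 4715 genes. A retained-intron transcript was annotated for 37 members (78.7%), against 58.5%, and with a mean of at least 1000 for 29 of 38, against 69%, a narrower gap. Hnrnph1 has neither kind among its 18 annotated transcripts, and Celf5 has 3 with a retained intron among 8. The table sums all transcripts of a gene, so levels of such forms cannot be read from it.

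Other genes of the splicing machinery gave 5 calls over 4 lists. In either direction 4.30% of all tested genes were called, and 7.67% of those with a mean of at least 1000. Of 46 spliceosome core genes, 1 was higher, U2af2, which reads the polypyrimidine tract (log2 fold change 0.19, SE 0.056, adjusted p = 0.0184), and 0 were lower, with a median of 0.020. Of 12 tested genes in a list of kinases and import factors of SR proteins, 1 was higher, Son (0.20, SE 0.056, adjusted p = 0.0175). Son is a speckle protein listed with them, and no kinase or import factor was called at the filter of 10. The kinase Clk1 came closest, at 0.22 (unadjusted p = 0.00223), and calls in these lists depend on the filter. With a filter at 50 the 4 lists had 7 genes higher. Of 48 other splicing regulators, Zfr (0.29, adjusted p = 0.000842) and Safb2 (0.27, adjusted p = 0.00832) were higher and Fubp1 (-0.20, adjusted p = 0.0126) was lower. Of 15 genes of the exon junction complex and nonsense-mediated decay, 0 were called. Unadjusted p was under 0.05 for 10 of the 46 spliceosome core genes and 12 of the 48 other regulators. It was so for 4 of the 12 genes of the kinase and import list, Son among them. The list of the exon junction complex and nonsense-mediated decay had 5 of 15. The share was 16.3% of all tested genes and 23.9% of those with a mean of at least 1000.

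Markers of embryonic stem cells were present, and 2 of 12 were higher, Utf1 (log2 fold change 0.48, adjusted p = 0.00332) and Sall4 (0.26, adjusted p = 0.00277). The other 10 had no call. In this list 9 log2 fold changes were positive and 3 negative, and unadjusted p was under 0.05 for 3 genes. The negative ones were -0.19 for Lin28a (unadjusted p = 0.00419), -0.099 for Dppa5a and -0.025 for Nanog. Of 16 neural markers 8 passed the filter and 1 was higher, Sox1, a transcription factor of early neural cells (1.26, SE 0.36, adjusted p = 0.0159). Of the 8, 5 had positive log2 fold changes, among them Neurod1 at 0.72 (unadjusted p = 0.00731), which was not called. The 3 negative ones were -0.92 for Elavl4, -0.45 for Elavl3, whose mean of 10.8 lay just above the filter, and -0.091 for Map2. Unadjusted p was under 0.05 for 4 of the 8, Elavl4 among them. The summed derived level of the list was 9653 in control and 10645 with Npm1 siRNA, with Dcx and Hes5 at 0. Most of that sum is Stmn2, with a mean of 7606 and a log2 fold change of 0.14. Celf5 is best known from brain, and the part of neural cells in its rise was not tested. Fibroblast markers summed to 191 and 134 with Dcn and Postn at 0, and muscle markers to 331 and 223 with Actc1, Myl1 and Myog at 0. Of 10 fibroblast markers 5 passed the filter, of 10 muscle markers 4 did, and 0 of either list were called. All of these log2 fold changes were negative, with medians of -0.719 for fibroblast and -0.513 for muscle markers. Unadjusted p was under 0.05 for 1 fibroblast and 2 muscle markers.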

How the data were processed

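RNA of mouse E14 cells, 3 control siRNA and 3 Npm1 siRNA samples grouped by title, was sequenced from poly(A)-selected stranded libraries, single-end at 100 bases, per the labels' protocols. The submitters' processing notes name FastQC, Trimmomatic 0.36, STAR and DESeq2 and the build GRCm38 (mm10). The counting step, its use of strand and the annotation were not given in the sources used here.

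The deposited table has a mean column, a signal value the authors made from counts divided by a scaling factor per library, per the file headers, and deposited log2 fold changes and p-values. It has no values per library, so no count model was fitted. The deposited p-values were adjusted by Benjamini-Hochberg over the 14284 genes whose mean reached 10, and genes were called at an adjusted p under 0.05. An SE is the unsigned log2 fold change over the normal quantile of its p, and intervals are 95%. Group levels called derived come from the mean and the fold change. The members and the 8 gene lists were chosen with earlier results of these data known. Named genes were the called members, those with an unadjusted p under 0.05, the 3 most abundant per family, and up to 3 called genes per list, or the 2 most abundant; others were chosen after their values were seen. Genes that this rule names in the list on nonsense-mediated decay are not reported here. GENCODE annotation matched 97.4% of tested genes by symbol, and RefSeq promoters matched 47 of 52 members.

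Depth per library is unknown; the means sum to 27631017. The 1314 genes seen by 1 read lay on 6 steps, which gave relative scaling factors of 0.923 to 1.06. Whole reads were then sought by lattice reduction. A solution was kept where it met the mean and, at a mean of at least 20, the fold change, within tolerances that were revised while members' results were in view. Means above 6000 were not tried. On simulated data 268 of 280 genes were accepted, all of them right. The simulation used the same scaling factors as the search, so it does not cover error in those factors. Over all genes with means from 20 to 6000, reads were recovered for 10042 of 11968. Intervals cover the spread as the authors modelled it. Python 3.11.15, scipy 1.17.1 and statsmodels 0.14.6 were used. Alternatives were other filters, centring, a length and GC trend, another adjustment and a fold threshold.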

Additional observations from a re-analysis of the deposited data

How the results depend on the processing

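The 2 calls among the members, Hnrnph1 and Celf5, held with no filter on low means, with a filter at 50 and with fold changes recentred on the median, a shift of 0.0019. The count of members called higher was 0 under the length and GC trend, under Benjamini-Yekutieli adjustment and in the test against a fold of 1.2. Adjusted p was then 0.0736, 0.134 and 1 for Hnrnph1 and 0.0577, 0.255 and 1 for Celf5, and log2 fold changes under the trend were 0.166 and 0.579. The cause of that loss was not tested. The other 26 named members kept their side of the threshold under these 6 alternatives. Of these, 24 kept their direction, and the exceptions are members near 0. Mbnl3, at 0.00065 as reported, was -0.00128 when recentred and -0.0161 under the trend, and Hnrnpk, at -0.0075, was 0.0226 under the trend. The median over members stayed between 0.0144 and 0.0184. Over all genes, 121 were higher and 109 lower under Benjamini-Yekutieli adjustment, and 9 and 12 against a fold of 1.2. The 4 splicing lists together had 4 genes higher and 1 lower as reported. They had 7 higher with a filter at 50, 2 under the trend, 1 under Benjamini-Yekutieli and 0 against a fold of 1.2, and the last 2 left 0 lower.

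No paired analysis was possible because the table has no values per library and recovered reads carry no replicate number. Leaving out a replicate was not run for the calls, only for ratios of recovered reads. Members of low mean have wide intervals, as the SE of 0.417 for Srsf12 shows. Every direction rests on the sign of Npm1.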
